A study of Mus musculus with 2 samples.

Results

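Sugar and lactate transporters were compared between granulocytes and monocytes sorted from mouse bone marrow, as 10 genes of 3 carrier families: Slc2a1, Slc2a3, Slc2a6, Slc2a8, Slc2a9, Slc16a1, Slc16a3, Slc16a6, Slc37a2 and Slc37a4. All gene probes whose name in the array files was one of these symbols were taken, which gave 20 of 41174 probes and 10 of 27745 names. Each probe is given apart. Both cell types came from wild-type male C57BL/6 mice with no treatment named, and 1 one-colour array was hybridised for granulocytes and 1 for monocytes. The surface markers of the sort, the age of the mice and the number of mice behind each RNA are not stated in the labels used here. With 1 array per cell type no difference has a replicate check, no test was made, and precision is limited by the number of arrays.

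Glucose enters cells by facilitated diffusion through the GLUT proteins, encoded by the Slc2a genes, and is trapped as glucose 6-phosphate by hexokinases. The monocarboxylate transporters, encoded by Slc16a genes, carry lactate or related acids with a proton across the plasma membrane, so that a cell with strong glycolysis can release its lactate. Slc37a2 and Slc37a4 encode exchangers of sugar phosphates for phosphate in the membrane of the endoplasmic reticulum. Neutrophils, the main granulocytes of marrow, have few mitochondria and make much of their ATP by glycolysis, while loss of the glucose 6-phosphate transporter of the endoplasmic reticulum in humans causes neutropenia and poor neutrophil function.

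Of the transporter probes, those of a glucose importer and a lactate exporter differed most. Slc2a3, which encodes the high-affinity glucose transporter GLUT3, was 60.9-fold higher in granulocytes by its bright probe, and Slc16a3, which encodes the lactate exporter MCT4, was 11.8-fold higher. Slc37a2, a sugar phosphate exchanger, was 6.63-fold higher by one probe and 3.43-fold higher by the other. Slc16a1, which encodes MCT1, was 3.53-fold and 3.15-fold higher in monocytes by its 2 neighbouring probes, below the 4-fold size used here as a call. A probe of Slc2a8, which encodes the intracellular transporter GLUT8, was 5.87-fold higher in monocytes, while the other Slc2a8 probe was 1.57-fold higher in granulocytes.

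The probes of Slc2a8 differed in direction, and those of Slc2a3 differed in size through a dim probe placed on another chromosome. The first 30 of the 60 bases of each of their probes are therefore shown, 5′ to 3′ as the array files give them, with the probe of Slc16a3.
Slc2a3 A_52_P354744: gtgcttacacatttcagaccctttaggcaa
Slc2a3 A_52_P371514: cagtactgattagtactaactagcccttaa
Slc2a3 A_52_P283862: tgagcgtcatctccgtgatagctttgtgca
Slc2a8 A_51_P358171: tggcatctacaagcccctcatcatcggcat
Slc2a8 A_52_P125354: tcagaaagggacttagccatatgggctcag
Slc16a3 A_51_P144090: ctgggcagtggtctgttcaccctgagtccc
In the mouse build mm8, the positions in the files were chr6:122693676-122693735 for A_52_P354744 and chr6:122703374-122703433 for A_52_P371514, both on the minus strand and 9698 bases apart. The file placed A_52_P283862 at chr17:83362051-83362111, on another chromosome than the other Slc2a3 probes. The Slc2a8 probes lay at chr2:32798201-32798260 (A_51_P358171) and chr2:32795181-32795240 (A_52_P125354), 3020 bases apart on the minus strand. The Slc16a3 probe lay at chr11:120774799-120774858 on the plus strand. An exon and UTR annotation of mm8 was not used here, so the part of the gene under each probe is not stated.

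The promoters of 8 of the 10 genes were matched in RefSeq, in 10 windows of 300 bases that run from 250 bases before the transcription start to 50 bases from it (GRCm38.p6). Slc2a3 and Slc16a6 were not matched. The windows of the lactate transporters that differed in opposite directions are shown with that of Slc2a1. Of the matched windows, only these 3 held ACGTG, one form of the core bound by the hypoxia-inducible factors. Other forms of that core, such as GCGTG, were not searched for. Capitals mark ACGTG and GGGCGG, the GC box, each on either strand (so also CACGT and CCGCCC).
Slc16a3 promoter, chr11:120948817-120949116, plus strand: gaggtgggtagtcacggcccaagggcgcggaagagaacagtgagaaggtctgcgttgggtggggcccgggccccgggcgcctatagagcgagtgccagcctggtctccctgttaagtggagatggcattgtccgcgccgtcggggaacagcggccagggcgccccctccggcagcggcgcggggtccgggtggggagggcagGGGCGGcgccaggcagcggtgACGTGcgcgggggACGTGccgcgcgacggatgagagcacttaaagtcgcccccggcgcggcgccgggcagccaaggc
Slc16a1 promoter, chr3:104638414-104638713, plus strand: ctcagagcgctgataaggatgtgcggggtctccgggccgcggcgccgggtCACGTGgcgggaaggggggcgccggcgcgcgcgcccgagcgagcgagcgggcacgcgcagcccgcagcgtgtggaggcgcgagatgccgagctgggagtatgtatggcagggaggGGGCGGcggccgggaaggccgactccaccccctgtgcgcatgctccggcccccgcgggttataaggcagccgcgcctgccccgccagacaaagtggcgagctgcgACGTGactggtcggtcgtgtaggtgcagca
Slc2a1 promoter, chr4:119108495-119108794, plus strand: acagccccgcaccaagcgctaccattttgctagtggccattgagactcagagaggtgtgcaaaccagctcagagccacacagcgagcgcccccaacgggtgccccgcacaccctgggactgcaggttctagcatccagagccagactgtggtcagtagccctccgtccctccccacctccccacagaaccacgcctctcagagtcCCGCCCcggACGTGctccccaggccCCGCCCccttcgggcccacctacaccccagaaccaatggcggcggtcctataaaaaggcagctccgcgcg
With the start site as 0, the Slc16a3 window held ACGTG at -27 to -23 and at -14 to -10. The Slc16a1 window held it at 20 to 24 and, on both strands of 1 CACGTG E-box, at -200 to -195, where the matches to ACGTG and CACGTG overlap. The Slc2a1 window held it at -36 to -32. Of 32851 such mouse windows, 6447 (19.6%) held ACGTG on either strand, 2349 (7.15%) CACGTG and 11714 (35.7%) GGGCGG. The GC box was also in the windows of Slc2a6 and Slc37a4. TATAAA, the letters of the TATA box, stood at 28 to 33 in the Slc2a1 window, after the start site. In 1 of the Slc37a4 windows it stood at -32 to -27, and 13.6% of all windows held it. GAGGAA, a core bound by the myeloid factor PU.1, was in the Slc37a2 window and in 28.3% of all. These matches describe letters in a window and are not measured sites. ACGTG stood both in the window of Slc16a3, higher in granulocytes, and in that of Slc16a1, lower in granulocytes by its 2 neighbouring probes. Whether these letters have a part in either difference was not tested.

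Signals are given as multiples of the array's own 75th percentile of processed intensity, which was 339.4 for granulocytes and 620.9 for monocytes, and a difference is the log2 level in granulocytes minus that in monocytes. The error after a difference is that of the scanner software for the 2 spots, mostly its 10% share of the signal, and holds nothing of the spread between mice or arrays. Repeated spots of a probe had a median SD (log2) of 0.069 in granulocytes and 0.066 in monocytes. Signal was well above background for 63.9% of granulocyte probes and 68.2% of monocyte probes. Of the 20 transporter probes, 20 were well above background on at least 1 array and 18 on both.

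**Figure D1:**
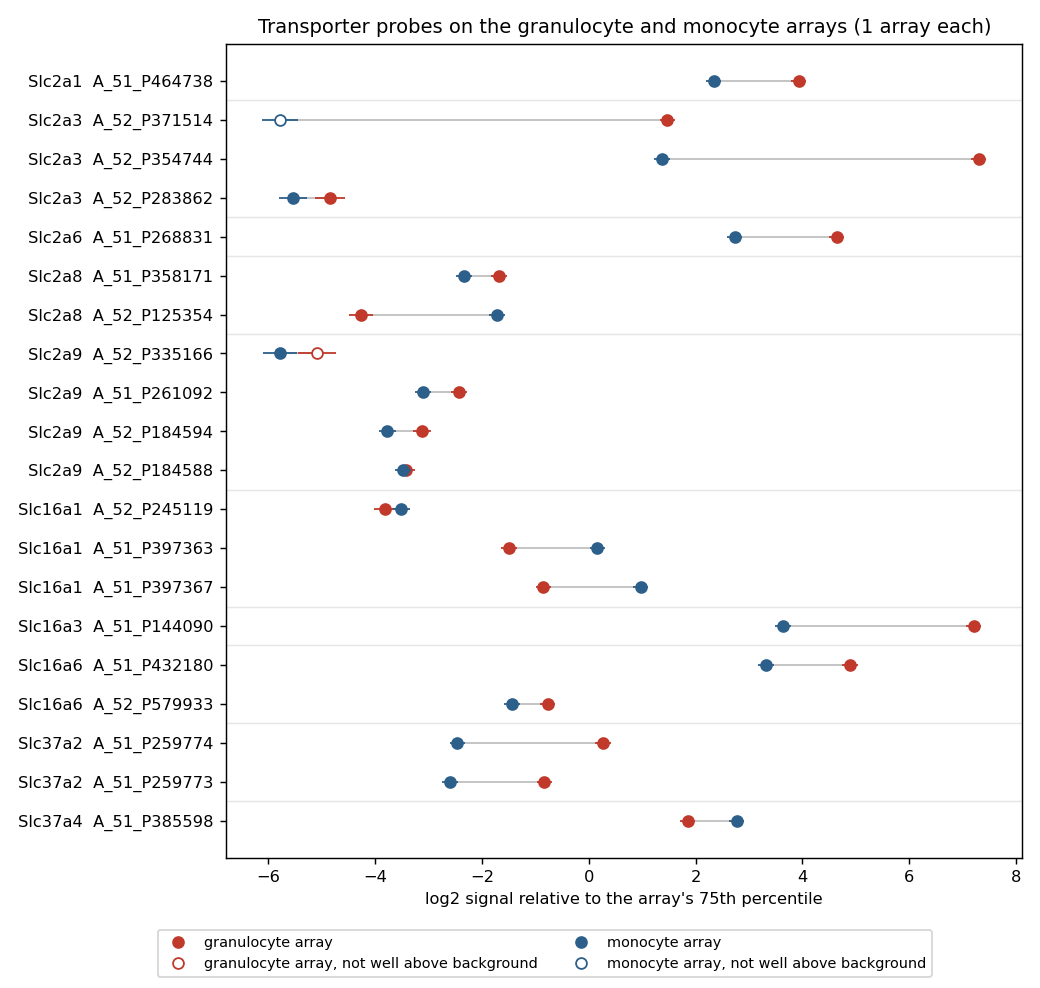
Level of each transporter probe on the granulocyte array (red) and the monocyte array (blue), as log2 signal relative to the 75th percentile of the array, with the scanner's error as bars and open circles for signals not well above background. Wide gaps stand at Slc2a3 (7.30 in granulocytes against 1.37 in monocytes for A_52_P354744, and 1.47 in granulocytes against -5.78 in monocytes for A_52_P371514) and at Slc16a3 (7.21 in granulocytes against 3.64 in monocytes).

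Of the glucose transporters of the plasma membrane, Slc2a3 differed most. Its probe A_52_P354744 read 157 times the 75th percentile in granulocytes and 2.58 times in monocytes, a difference of 5.93 ± 0.20. Of the 25251 probes measured on both arrays, 99.8% had a lower difference. Probe A_52_P371514 read 2.78 in granulocytes and was not well above background in monocytes, where its measured value was 0.0182. Taken at that value, Slc2a3 was 153-fold higher in granulocytes by this probe (7.25 ± 0.37). This is an estimate from a dim level and not a strict bound, and the difference was 4.50 with the normexp background correction. The probe that the file places on chromosome 17, A_52_P283862, was near background on both arrays, at 0.0348 in granulocytes and 0.0215 in monocytes, and its difference was 0.69 ± 0.38. This probe and A_52_P354744 thus lay 5.23 apart on the log2 scale. That range was reached by 15 (0.28%) of 5429 genes with at least 2 measured probes, whose median range was 0.37. For Slc2a3 it came from the dim probe placed on chromosome 17, while both chromosome 6 probes were far higher in granulocytes.

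Slc2a1 encodes GLUT1, the glucose transporter of most cell types at rest. Its probe (A_51_P464738, chr4:118635191-118635250, plus strand) read 15.2 in granulocytes and 5.07 in monocytes, a 3.0-fold difference (1.58 ± 0.20). It was lower than 4-fold, and 85.4% of measured probes had a lower difference.

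Slc2a6, Slc2a8 and Slc2a9 encode carriers that work mostly inside cells or on other substrates. Slc2a6 encodes GLUT6, a transporter of lysosomal membranes that inflammatory stimuli induce in macrophages. Its probe (A_51_P268831, chr2:26843637-26843696) read 24.9 in granulocytes and 6.62 in monocytes, 3.76-fold apart (1.91 ± 0.20), the transporter probe nearest below the 4-fold size. Slc2a8 gave opposite directions: A_52_P125354 read 0.0517 in granulocytes and 0.304 in monocytes (-2.55 ± 0.26), and A_51_P358171 read 0.312 in granulocytes and 0.199 in monocytes (0.65 ± 0.21). The 2 probes start at bases 1840 and 798 of their listed transcripts, and their range of 3.20 was reached by 94 (1.73%) of the 5429 genes. With the normexp background correction the difference of A_52_P125354 was -1.06, which ended its call.

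Slc2a9 encodes GLUT9, which carries urate. Its 4 probes were dim in both cell types. A_51_P261092 (chr5:38637928-38637987) read 0.185 in granulocytes and 0.117 in monocytes (0.66 ± 0.21). A_52_P184594 (chr5:38639491-38639550) read 0.114 in granulocytes and 0.0732 in monocytes (0.64 ± 0.23), and A_52_P184588 (chr5:38639211-38639269) read 0.0931 in granulocytes and 0.0899 in monocytes (0.05 ± 0.23). These differences were under 2-fold and lay close to 0.51, the median of all measured probes, for A_51_P261092 and A_52_P184594. The last probe, A_52_P335166, spans 12387 bases of chromosome 5 (chr5:38728995-38741381) and so crosses an intron. It read 0.0293 in granulocytes, not well above background, and 0.0182 in monocytes, and no fold could be given.

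Of the lactate transporters, Slc16a3 was higher in granulocytes and Slc16a1 in monocytes. MCT4, the product of Slc16a3, has a low affinity for pyruvate and is known as the exporter of cells with strong glycolysis. Its probe A_51_P144090 read 148 in granulocytes and 12.5 in monocytes, a difference of 3.56 ± 0.20 that exceeded that of 98.2% of measured probes. MCT1, the product of Slc16a1, moves lactate either way and is the usual carrier for its uptake. A_51_P397367 (chr3:104786079-104786138) read 0.555 in granulocytes and 1.96 in monocytes, and its difference was -1.82 ± 0.20. A_51_P397363 (chr3:104785973-104786033), 106 bases away, read 0.353 in granulocytes and 1.11 in monocytes (-1.66 ± 0.21).

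These 2 neighbouring Slc16a1 probes passed 4-fold without scaling, at -2.69 and -2.53, and with spike-in scaling, at -2.40 and -2.24, and A_51_P397367 also in the authors' deposited table, at -2.0. The third Slc16a1 probe, A_52_P245119 (chr3:104782221-104782280), lies 3752 bases before A_51_P397363. It starts at base 983 of the listed transcript, where the other two start at 2981 and 2875. It read 0.0707 in granulocytes and 0.0875 in monocytes, and its difference of -0.31 ± 0.26 turned positive (0.30) with normexp. Slc16a6 encodes MCT7, known as a ketone body exporter of the liver in zebrafish. Its probe A_51_P432180 (chr11:109268834-109268893) read 29.7 in granulocytes and 10 in monocytes, 2.97-fold apart (1.57 ± 0.20). A_52_P579933 (chr11:109267147-109267205), 1687 bases away, read 0.586 in granulocytes and 0.368 in monocytes (0.67 ± 0.21).

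The 2 sugar phosphate exchangers differed in opposite directions. Slc37a2, an exchanger known from macrophages, was higher in granulocytes by both probes, which lie 278 bases apart. A_51_P259774 (chr9:36980417-36980476) read 1.20 in granulocytes and 0.181 in monocytes, a difference of 2.73 ± 0.21 that was 1.86 without scaling and so no longer 4-fold. A_51_P259773 (chr9:36980139-36980198) read 0.564 in granulocytes and 0.165 in monocytes (1.78 ± 0.21). Slc37a4 encodes the glucose 6-phosphate transporter of the endoplasmic reticulum, which hands its substrate to the phosphatase G6pc3 in blood cells. Its probe (A_51_P385598, chr9:44153899-44153957, plus strand) read 3.60 in granulocytes and 6.83 in monocytes, 1.90-fold higher in monocytes (-0.92 ± 0.20).

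By the 4-fold rule, 4 of 20 transporter probes (20.0%) were higher in granulocytes, beside 8.59% of the 29037 probes above background on at least 1 array. They stood for Slc2a3 with 2 probes, Slc16a3 and Slc37a2. In the monocyte direction the count was 1 of 20 (5.0%), a Slc2a8 probe, beside 9.11% of all. At 2-fold, 8 probes (40.0%) were higher in granulocytes, beside 29.7%, and 3 (15.0%) in monocytes, beside 19.3%, a share near that of all probes. The median difference of the 19 probes with a value was 0.67, against 0.46 over all probes with a difference. Probes of 1 gene share their transcript, so these counts are not of independent features, and nothing particular to the transporters is read from them.

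**Figure D2:**
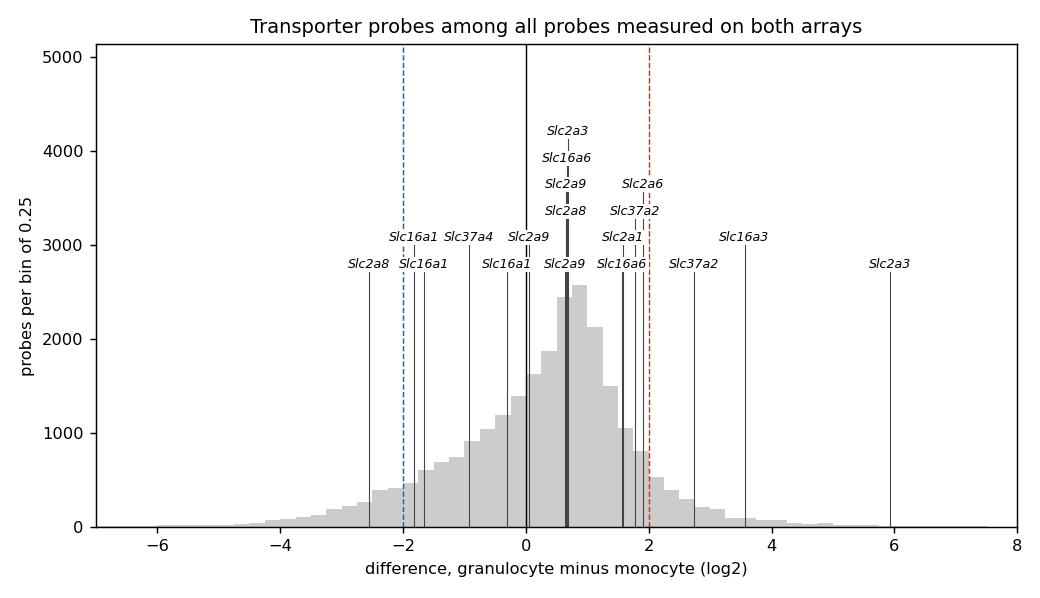
Differences of all probes measured on both arrays (grey bars, number of probes per bin of 0.25 on the log2 scale) with 1 line for each measured transporter probe, granulocyte minus monocyte, and dashed lines at 4-fold. Slc2a3 (5.93), Slc16a3 (3.56) and Slc37a2 (2.73) lie beyond 4-fold on the granulocyte side and a Slc2a8 probe (-2.55) on the monocyte side.

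Since the 75th percentiles differed, scaling moved every difference by 0.87. Without it the median over the transporter probes was -0.19, and 6 probes of Slc2a3 (A_52_P283862), Slc2a8, Slc2a9 and Slc16a6 with small positive differences turned negative. Slc2a3 stayed at 5.06 and, by the probe dim in monocytes, at 6.38, Slc16a3 at 2.69, Slc37a4 at -1.79 and Slc2a1 at 0.71. The median of all measured probes was 0.51 with scaling and -0.37 without, so it crossed 0 as well.

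**Figure D3:**
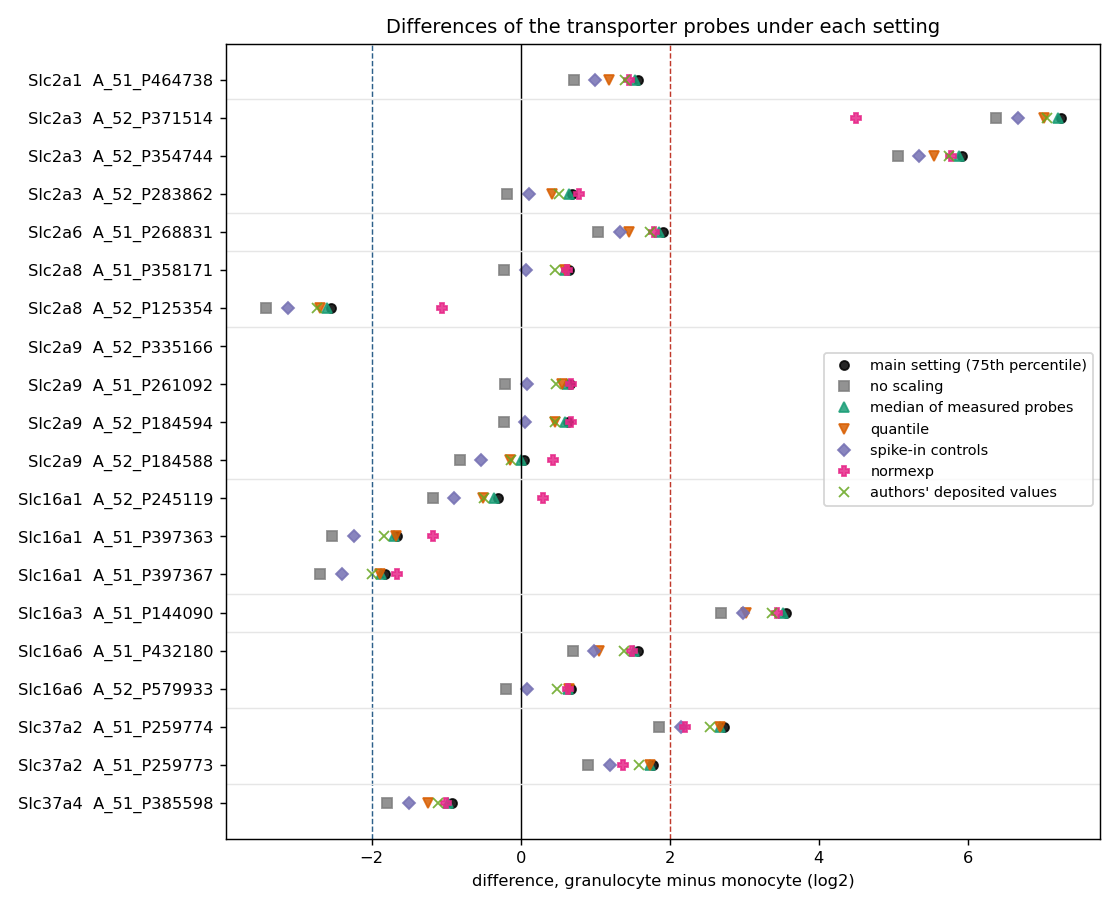
Difference of each transporter probe, granulocyte minus monocyte (log2), under the 75th percentile scaling and 6 alternatives, with dashed lines at 4-fold. The Slc2a3 probes A_52_P354744 and A_52_P371514 and the Slc16a3 probe stay beyond 4-fold on the granulocyte side throughout, while small differences such as those of Slc2a9 fall on both sides of 0.

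For each list below, the share of its probes above background on at least 1 array follows a count. Over all probes these shares were 8.59% in granulocytes and 9.11% in monocytes at 4-fold. At 2-fold they were 29.7% and 19.3%, and the median difference was 0.46. Shares or medians near these are not read as results about a list. Among the related carriers, few were measured. Of 19 probes for 13 other hexose transporters, 6 were above background. Their median difference was 0.91 (0.04 without scaling and 0.33 with spike-in scaling). At 4-fold, 1 (16.7%) was higher in granulocytes and 0 in monocytes. The granulocyte-high probe was Slc5a11, of a sodium-coupled inositol and sugar carrier, with 2.60 in granulocytes and 0.30 in monocytes (3.11). Slc5a10 differed by 1.01 and both measured Slc5a4b probes by 0.91. Of 19 probes for 13 other monocarboxylate carriers, 10 were above background. Their median difference was -1.31 (0.46 with all dim probes at their measured value), and 1 passed 4-fold on the granulocyte side and 3 on the monocyte side. Without scaling these counts were 0 and 6, with spike-in scaling 0 and 4, and with normexp 1 and 1. Slc16a8, which encodes the lactate carrier MCT3, read 2.71 in granulocytes and 0.507 in monocytes (2.42). Slc16a10, an aromatic amino acid carrier, read 0.46 in granulocytes and 2.58 in monocytes (-2.49, and -2.39 and -1.64 by the other probes), and Slc16a13 was at least 6.05-fold lower in granulocytes. Both other SLC37 genes were higher in granulocytes, Slc37a3 at 3.24 against 0.398 in monocytes (3.02) and Slc37a1 at 3.16 against 1.14 in monocytes (1.46).

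Partners and regulators of the transporters had a median of 0.88 over 25 probes with a difference (-0.11 without scaling). At 4-fold, 1 probe (3.7%) was higher in granulocytes and 0 in monocytes, and at 2-fold 10 (37.0%) and 1 (3.7%). Without scaling, and with spike-in scaling, these 4-fold counts were 0 and 1. The granulocyte-high probe was Egln3, an oxygen-sensing prolyl hydroxylase, with 1.60 in granulocytes and 0.283 in monocytes (2.50). Basigin (Bsg), the chaperone of MCT1 and MCT4, read 1.23 in granulocytes and 1.85 in monocytes (-0.59). Its relative embigin (Emb) gave 0.04, 0.37 and 1.49 by 3 probes. Txnip, which lowers glucose uptake by removing GLUT1 from the cell surface, read 46.2 in granulocytes and 18.8 in monocytes (1.30, and 0.95 by another probe). Mlx, the partner of the glucose-sensing factors, gave 1.55 by one probe and 1.12 by its other probe. For Tbc1d4, whose product holds back GLUT4 vesicles, 1 probe was at least 3.62-fold lower in granulocytes, while the probe measured on both arrays differed by -0.42.

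The enzymes that make and use glucose 6-phosphate had a median of 1.23 over 19 probes (0.36 without scaling and 0.65 with spike-in scaling). At 4-fold, 1 probe (5.26%) was higher in granulocytes (0 without scaling) and 1 (5.26%) in monocytes, and at 2-fold 11 (57.9%) and 1 (5.26%). Hk3, the hexokinase of myeloid cells, read 100.1 in granulocytes and 15.5 in monocytes (2.69). Hk1 was higher in granulocytes by 5 probes, with differences between 1.23 and 1.54, and Hk2 by 1.11. G6pc3, the phosphatase that takes its substrate from the Slc37a4 product, read 0.705 in granulocytes and 3.27 in monocytes (-2.21), the same direction as Slc37a4. G6pdx, the first enzyme of the pentose phosphate pathway, was 3.93-fold higher in granulocytes, and Gpi1 was higher by 1.58 by its bright probe and by 1.78 by a dim one.

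Below glucose 6-phosphate, 33 probes of glycolysis genes had a median of 0.54, beside 0.46 over all probes (-0.33 without scaling and -0.04 with spike-in scaling). At 4-fold, 4 (12.1%, beside 8.59% of all) were higher in granulocytes and 0 in monocytes. At 2-fold these were 13 (39.4%, beside 29.7%) and 0. The 4-fold granulocyte count was 0 without scaling and 1 with spike-in scaling. Pfkfb4, which makes the activator of phosphofructokinase, read 164.2 in granulocytes and 27.2 in monocytes (2.59). Pfkfb3, of the same enzyme family, was higher by 2.31, 2.23 and 1.78 by 3 probes. The pyruvate kinase Pkm2 was higher by 2.39 by one probe and by 1.53 and 1.58 by the other two. Over lactate and pyruvate handling, 21 probes had a median of 0.36 (-0.60 without scaling and -0.31 with spike-in scaling). At 4-fold, 1 (4.55%) was higher in granulocytes and 2 (9.09%) in monocytes, and at 2-fold 8 (36.4%) and 4 (18.2%). The 4-fold monocyte-side count was 4 without scaling, 4 with spike-in scaling and 1 with normexp. Ldha, the lactate dehydrogenase subunit that favours lactate formation, read 163.6 in granulocytes and 52.2 in monocytes (1.65, and 1.80 by another probe), below 4-fold. Ldhb, which favours pyruvate, read 3.0 in granulocytes and 13.2 in monocytes (-2.14). The testis form Ldhc was higher by 4.58, the pyruvate dehydrogenase phosphatase Pdp1 gave -2.10, and the kinase Pdk1 gave -1.99 and -1.64.

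Of the genes of fructose and urate handling, 11 probes had a median of -0.66 (0.22 with all dim probes at their measured value). At 4-fold, 0 were higher in granulocytes and 2 (18.2%) in monocytes. Both were probes of Akr1b3, the aldose reductase that starts fructose formation from glucose, which read 1.96 in granulocytes and 25.4 in monocytes (-3.70, and -3.59 by another probe). Xdh, the enzyme that makes urate, read 43.8 in granulocytes and 13 in monocytes (1.75 by both probes).

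**Figure D4:**
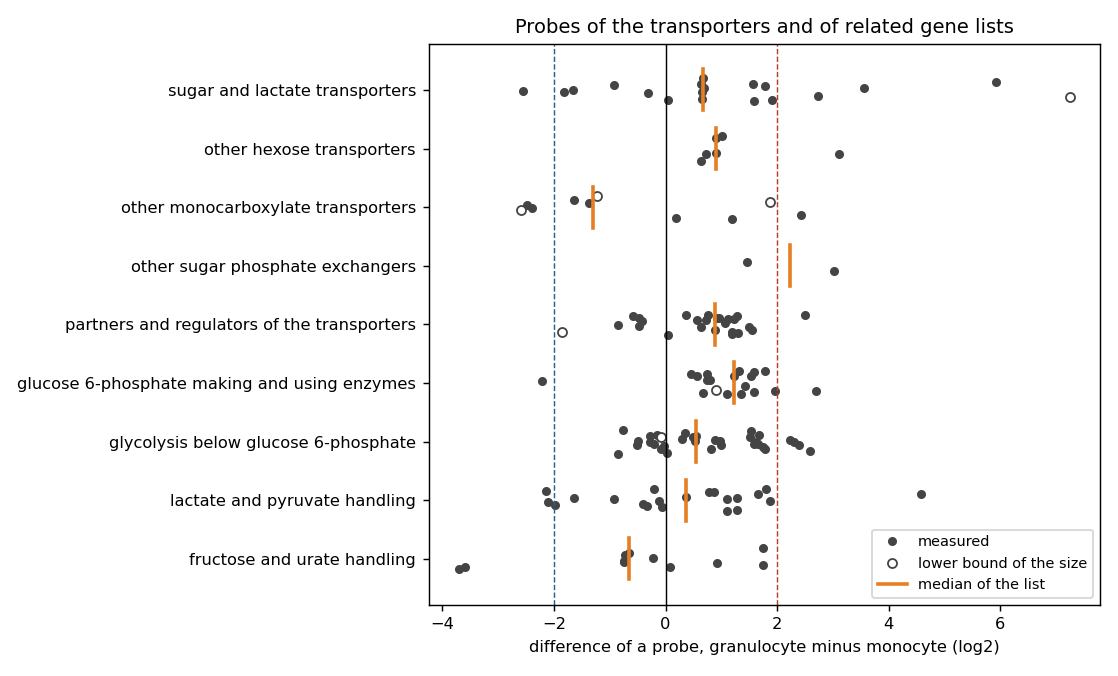
Differences, granulocyte minus monocyte (log2), of single probes of the transporters (top row) and of 8 related gene lists, with open circles for lower bounds (an estimate for the Slc2a3 probe A_52_P371514), orange bars for the median of a list and dashed lines at 4-fold. The medians run between -1.31 (other monocarboxylate transporters) and 2.24 (the other SLC37 genes, labelled other sugar phosphate exchangers).

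The labels were checked against markers. Monocyte markers summed to 86.1 in granulocytes and 698 in monocytes, and 14 of 20 probes were at least 4-fold higher in monocytes. Granulocyte markers summed to 4790 in granulocytes and 1420 in monocytes, with 8 of 14 probes at least 4-fold higher in granulocytes, while 2, of the early granule genes Mpo (-2.99) and Elane (-3.67), were higher in monocytes. Ly6g and Ly6c2 were not analysed here. Markers of other cells differed too, and GLUT3 is also a transporter of platelets, and GLUT1 and MCT1 of red cell precursors. Platelet and megakaryocyte markers summed to 36.1 in granulocytes and 8.46 in monocytes (median difference 1.44). Of these sums, 1 Itgb3 probe held 26.3 in granulocytes and 5.75 in monocytes, Clec1b 4.28 and 0.215, and Pf4 1.99 and 0.68. At 4-fold, 3 platelet and megakaryocyte probes (25.0%, beside 8.59% of all) were higher in granulocytes and 0 in monocytes. These were of Clec1b (4.32), Gp9 (2.52) and Itgb3 (2.19). All 12 probes were above background in granulocytes and 11 in monocytes, where Gp6 was not. Erythroid markers summed to 615 in granulocytes and 175 in monocytes (median 1.42), with all 16 probes above background in granulocytes and 15 in monocytes. Over T and NK markers the sums were 8.19 in granulocytes and 35.4 in monocytes (median -3.09). Of these sums, 1 Nkg7 probe held 1.28 in granulocytes and 12.5 in monocytes, and Cd3d 4.52 and 1.34. At 4-fold, 9 T and NK probes (60.0%, beside 9.11% of all) were higher in monocytes and 0 in granulocytes. Among these were probes of Klrd1 (-4.53), Lck (-3.98), Cd3g (-3.44) and Nkg7 (-3.29). At 2-fold, 11 were higher in monocytes and 1, of Cd3d (1.76), in granulocytes. Of 18 probes, 12 were above background in granulocytes and 15 in monocytes, and that of the NK receptor gene Ncr1 on neither array. Over B lineage markers the sums were 6.85 in granulocytes and 5.68 in monocytes (median 1.02), with 9 of 9 measured probes above background in each. Of these sums, Cd79b held 3.39 in granulocytes and 4.11 in monocytes. The part of these cells in the transporter differences was not tested. In sorted bulk RNA, fewer cells of a type and less RNA per cell cannot be told apart.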

How the data were processed

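RNA of granulocytes and of monocytes, 1 sample each, was amplified linearly from 0.5 µg with a T7 promoter and labelled with Cy3, per the labels. Per the file headers, Agilent Feature Extraction 10.5.1.1 turned the scans into a background-subtracted intensity per spot on a linear scale, not normalised between arrays. The authors' deposited value table is on a log2 scale and equals log2 of that intensity minus 0.24 for granulocytes and minus 0.92 for monocytes, within 0.01 for 99.83% and 99.87% of probes; no source used here gives the rule behind them. Its column medians were 4.80 and 4.80.

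Of 43379 gene spots per array, outlier spots (143 for granulocytes, 103 for monocytes) were dropped and 0 were saturated. Both arrays shared slide and scan. Values were log2 of the processed intensity minus the array's 75th percentile, with spots of a probe averaged. Where 1 array did not measure a probe well above background, "at least" marks a bound: from the bright level was taken either the floor of the dim array, its lowest log2 level well above background (-5.16 in granulocytes, -6.04 in monocytes), or the level measured for the probe if higher. The measured level was used for A_52_P371514, so its difference is an estimate and not a strict bound. A call is 4-fold or more. Named were all transporter probes, the up to 4 largest differences of each list, and Bsg, Emb, Txnip, G6pc3, Ldha, Ldhb, Hk1, Hk2 and Hk3; Mpo and Elane were named after their values were seen. The transporters and lists were chosen with earlier results of these data known. Probe positions are in mm8 and promoters in GRCm38.p6. Alternatives were other scalings, normexp (limma 3.58.1 in R 4.3.3, offset 50), the authors' table, filters on dim probes, outlier spots kept and other fold sizes. Scripts ran in Python 3.11.15 and were tested on simulated data.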

Additional observations from a re-analysis of the deposited data

How the results depend on the processing

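The 5 transporter probes at least 4-fold apart kept their direction in all 44 recomputed values. Most of these values could not have turned. Leaving out the scaling, the alternative with the largest median shift, moved differences by 0.87, less than the log2 size of 2.0 that a call requires. The count therefore says little about how robust the calls are. Over the 19 probes with a value, 10 of 170 recomputed values had the other sign, from 7 probes. Median difference over transporter probes (0.67): -0.19 without scaling, 0.09 with spike-in scaling and 0.49 in the authors' deposited table. Count at least 4-fold higher in granulocytes (4): 8 at 2-fold. Count at least 4-fold higher in monocytes (1): 3 without scaling, 3 with spike-in scaling, 0 with normexp, 2 in the authors' deposited table, 3 at 2-fold and 0 at 8-fold. Over all probes, the granulocyte count (2495) was 1010 without scaling, 1344 with spike-in scaling, 1408 with normexp, 8616 at 2-fold and 891 at 8-fold, and the monocyte count (2644) was 5170, 4155, 1234, 5607 and 1040 under the same alternatives. Of 72 recomputed list medians, 7 changed sign: without scaling, partners and regulators (-0.11), glycolysis (-0.33) and lactate and pyruvate handling (-0.60); with spike-in scaling, glycolysis (-0.04) and lactate and pyruvate handling (-0.31); and with dim probes at their measured value, other monocarboxylate transporters (0.46) and fructose and urate handling (0.22). Of 176 recomputed list counts, 38 moved by over 1.5 times. Causes of these changes were not tested. No alternative supplies a replicate, and dim probes such as those of Slc2a9 are limited by their signal over background.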
